A study of Arabidopsis thaliana with 6 samples.

Results

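The 38 genes described here encode glutathione transferases of the phi class (GSTF, 11 genes) and the tau class (GSTU, 27 genes) of Arabidopsis thaliana. They were chosen from a list of locus codes, and all 38 were found among the 27241 genes tested. Each carries a GSTF or GSTU name in the reference gene table, AT1G10370 under the symbol ERD9 with GSTU17 as a synonym. The study compared seedlings of the mutant naa20-1 (3 arrays) with wild-type seedlings of the accession Col-0 (3 arrays), both 17 days old and untreated. They grew on 1x MS medium with 8.5 h of light a day at 100 µE. The submitters describe the mutant as depleted of NAA20, the catalytic subunit of NatB, which acetylates the N-terminus of proteins that begin with certain residues. The labels do not state the kind of allele or separate cultures for the 3 samples of a genotype, so the p-values cover the spread between these arrays alone, and that spread may be technical.

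Glutathione transferases join the tripeptide glutathione to reactive or toxic small molecules, reduce some peroxides, or carry hydrophobic compounds without changing them. Phi and tau are the largest classes in plants, and both grew largely through tandem duplication, so that neighbours on a chromosome are often close copies. Many members respond to pathogens, salicylic acid, hydrogen peroxide, auxin or herbicides, and a few have defined places in the synthesis of defence compounds made from tryptophan.

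Values are log2 expression after RMA, a procedure that corrects background, equalises the arrays and summarises the probes of a gene. Errors are SD over 3 arrays unless SE is named, differences are naa20-1 minus Col-0, and genes with an adjusted p under 0.05 in limma (Benjamini-Hochberg over the 27241 genes) are termed called. The number of arrays limits the precision. All values in the table ran from 1.75 to 14.58 with a 25th percentile of 3.72, and no detection calls are given, so values near or under that percentile may be background. Across genes, arrays of one genotype correlated at 0.993 to 0.995, and arrays of different genotypes at 0.990 to 0.993. NAA20 (AT1G03150) averaged 7.68 ± 0.38 in naa20-1 and 8.75 ± 0.04 in Col-0, with the highest mutant value in replicate 1 (8.10). Seedlings were measured whole, so fewer cells of a type and less RNA per cell cannot be told apart.

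Among the 38 genes, GSTF7 and GSTF6 fell and GSTU25 rose in naa20-1, and the other 35 did not pass the test. GSTF7 was 6.05-fold and GSTF6 3.42-fold lower, and GSTU25 was 1.82-fold higher. Over all genes tested 0.767% were called lower and 0.382% higher, 1.15% in either direction. A further 9 members were not called although the 3 values of one genotype lay entirely above those of the other, which made 6 members higher and 6 lower without overlap. Over all genes 10.6% were higher and 10.5% lower without overlap, 21.0% together. Whether the 12 of 38 members differ from that share was not tested. In the remaining 26 members the genotypes overlapped.

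The largest differences lay in the phi class. The 11 phi genes had a median difference of -0.18, from -2.60 to 0.24, and the 27 tau genes one of 0.07, from -0.70 to 0.87. The median over all genes tested was 0.01. All 4 members that differed by -1 or further were phi genes (GSTF7, GSTF6, GSTF3 and GSTF2), and 0.463% of all genes tested did so. GSTF6 and GSTF7 are near-identical copies, as are GSTF2 and GSTF3, so the 4 differences may not be separate signals. None of the tau genes reached a difference of 1 in either direction, and 25 of the 27 lay within 0.5 of 0, as did 7 of 11 phi genes and 95.6% of all genes. These are counts and medians of a chosen list, and the difference between the classes was not tested.

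**Figure D1:**
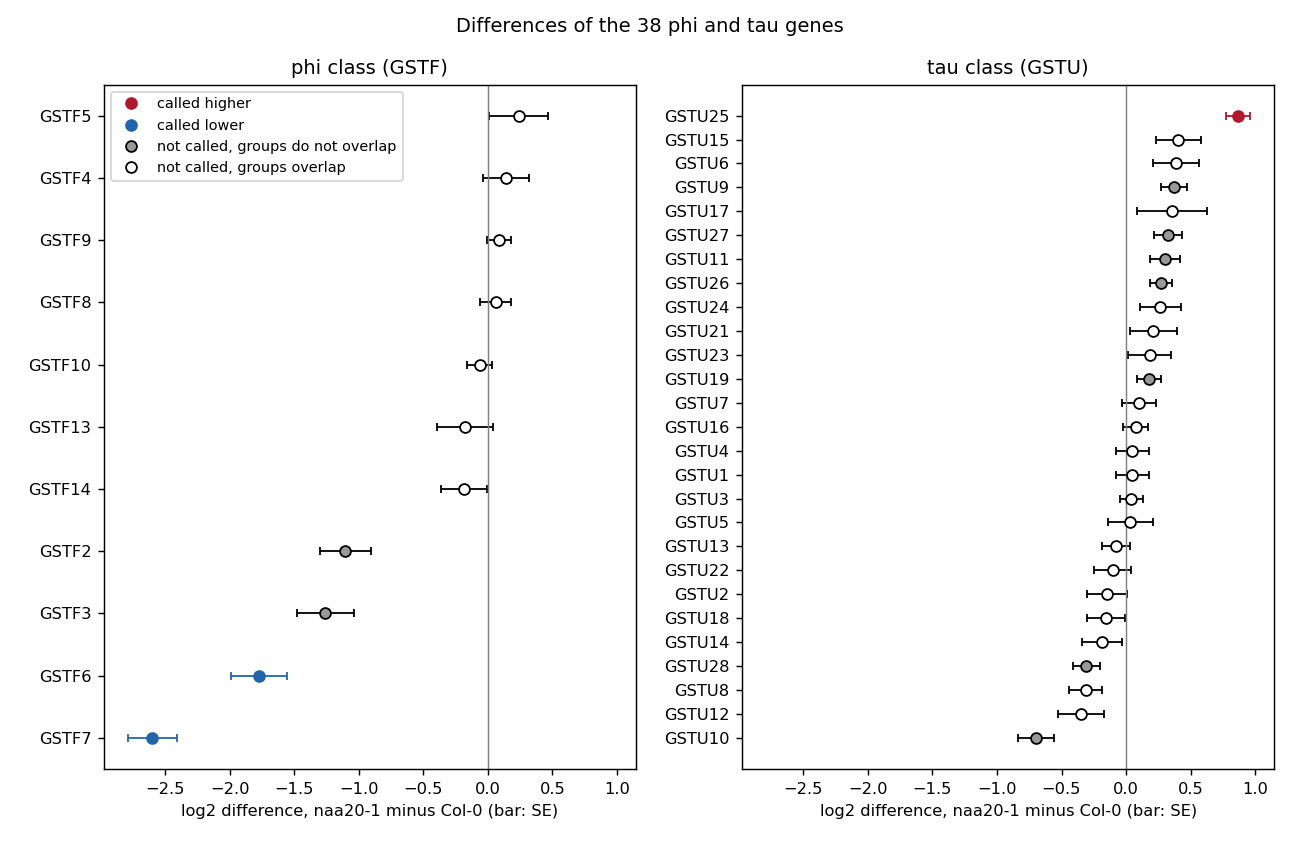
Log2 difference (naa20-1 minus Col-0, x axis) of each phi gene (left) and tau gene (right), sorted from the most positive to the most negative, with bars for the SE of the fit. Filled blue and red points are genes called lower and higher, grey points are genes not called whose groups do not overlap, and open points overlap; the 4 lowest phi genes lie beyond -1 and GSTU25 stands apart at 0.87.

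GSTF7 and GSTF6 sit in the tandem cluster GSTF4 to GSTF7 on chromosome 1, whose 4 members have no other gene of the reference table between them. GSTF7 (AT1G02920), a transferase known as a salicylate- and pathogen-responsive gene, was at 6.26, 5.86 and 5.52 in the naa20-1 arrays, against 8.67, 8.40 and 8.37 in the Col-0 arrays. Every mutant value lay more than 2 units under the lowest wild-type value. The difference was -2.60 (SE 0.19, adjusted p = 0.00277 in limma), the 5th most negative of the 27241 genes. It was called under all 12 alternatives tried, with adjusted p-values from 5.70e-05 to 0.0220.

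GSTF6 (AT1G02930), which conjugates glutathione to an indole intermediate on the way to the phytoalexin camalexin, was at 6.74, 5.83 and 6.13 in naa20-1, against 7.90, 8.10 and 8.03 in Col-0. The wild-type arrays lay within 0.20 of each other, while the mutant arrays spread over 0.91, with replicate 1 highest and all 3 below Col-0. The difference was -1.77 (SE 0.21, adjusted p = 0.0149 in limma), the 16th most negative. It was no longer called without naa20-1 replicate 3 (adjusted p = 0.0547) or without Col-0 replicate 1 (0.0594), 2 (0.0679) or 3 (0.0702), with differences from -1.72 to -1.83. GSTF6 and GSTF7 are near-identical copies, and the array values do not settle how much signal either probe set takes from the other gene.

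The 2 other genes of that cluster did not pass the test. GSTF4 (AT1G02950) averaged 5.97 ± 0.32 in naa20-1 and 5.83 ± 0.19 in Col-0, a difference of 0.14. GSTF5 (AT1G02940) averaged 3.52 ± 0.15 in naa20-1 and 3.28 ± 0.50 in Col-0, under the 25th percentile in both, so that its level may be background. On the mutant arrays GSTF4 lay both above and below the wild-type mean, by -0.22 to 0.40.

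**Figure D2:**
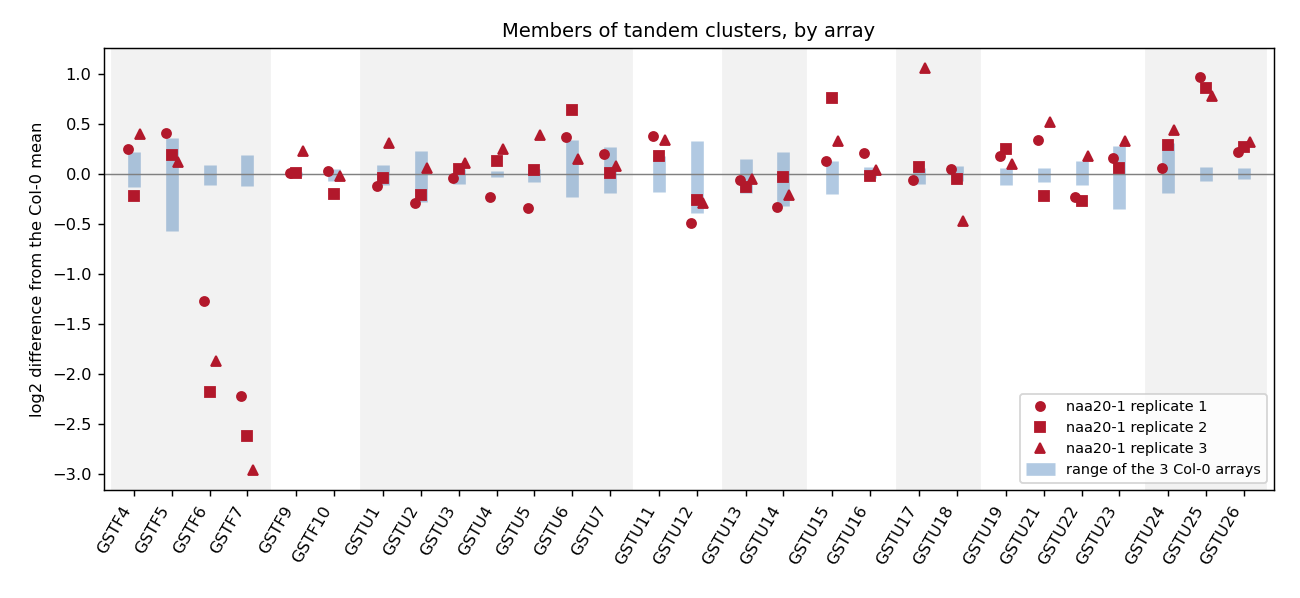
Members of the 9 tandem clusters (x axis), with each naa20-1 array plotted as its log2 difference from the Col-0 mean (y axis) and a blue bar for the range of the 3 Col-0 arrays. GSTF6 and GSTF7 lie 1.27 to 2.96 below the Col-0 mean on every mutant array, and GSTU25 lies 0.78 to 0.97 above it. The other members either scatter around it or lie to a single side of it by less.

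GSTF2 and GSTF3, which lie alone on different chromosomes but are near-identical copies in sequence, both lay below Col-0 on every mutant array and just missed the threshold. GSTF2 (AT4G02520), a protein that binds camalexin and other indole compounds, was at 8.58, 8.04 and 7.96 in naa20-1, against 9.42, 8.99 and 9.48 in Col-0. Its difference was -1.10 (SE 0.20, adjusted p = 0.0515 in limma). GSTF3 (AT2G02930) was at 5.57, 5.22 and 4.86 in naa20-1, against 6.59, 6.08 and 6.76 in Col-0. The spread within each genotype was wide, 0.71 in naa20-1 and 0.67 in Col-0 for GSTF3, but the genotypes did not overlap. Its difference was -1.26 (SE 0.22, adjusted p = 0.0513 in limma). Both genes were called with a variance trend and robust fit (adjusted p = 0.0195 for GSTF2 and 0.0110 for GSTF3) and when the dimmest 40% of genes were left out (0.0316 for each). Over all 12 alternatives, adjusted p-values ran from 0.0195 to 0.174 for GSTF2 and from 0.0110 to 0.163 for GSTF3. How much signal either probe set takes from the other gene is not settled by the array values.

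In the other 5 phi genes the genotypes overlapped and none was called. GSTF9 (AT2G30860) and GSTF10 (AT2G30870), direct neighbours on chromosome 2, were close to equal in the genotypes. GSTF9 averaged 10.38 ± 0.13 in naa20-1 and 10.29 ± 0.02 in Col-0, a difference of 0.08 with an SE of 0.09. GSTF10, isolated as an early dehydration-induced gene and reported to bind the receptor kinase BAK1, averaged 9.31 ± 0.12 in naa20-1 and 9.37 ± 0.06 in Col-0. GSTF8 (AT2G47730), a widely used marker of early responses to salicylate and hydrogen peroxide, averaged 5.28 ± 0.20 in naa20-1 and 5.22 ± 0.09 in Col-0. Its difference of 0.06 had an SE of 0.12 and its genotypes overlapped. GSTF13 (AT3G62760) was at 5.67, 6.09 and 5.71 in naa20-1, against 5.76, 6.49 and 5.75 in Col-0. GSTF14 (AT1G49860) averaged 5.21 ± 0.35 in naa20-1 and 5.39 ± 0.17 in Col-0. Both differences were -0.18, smaller than the range of the mutant arrays.

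**Figure D3:**
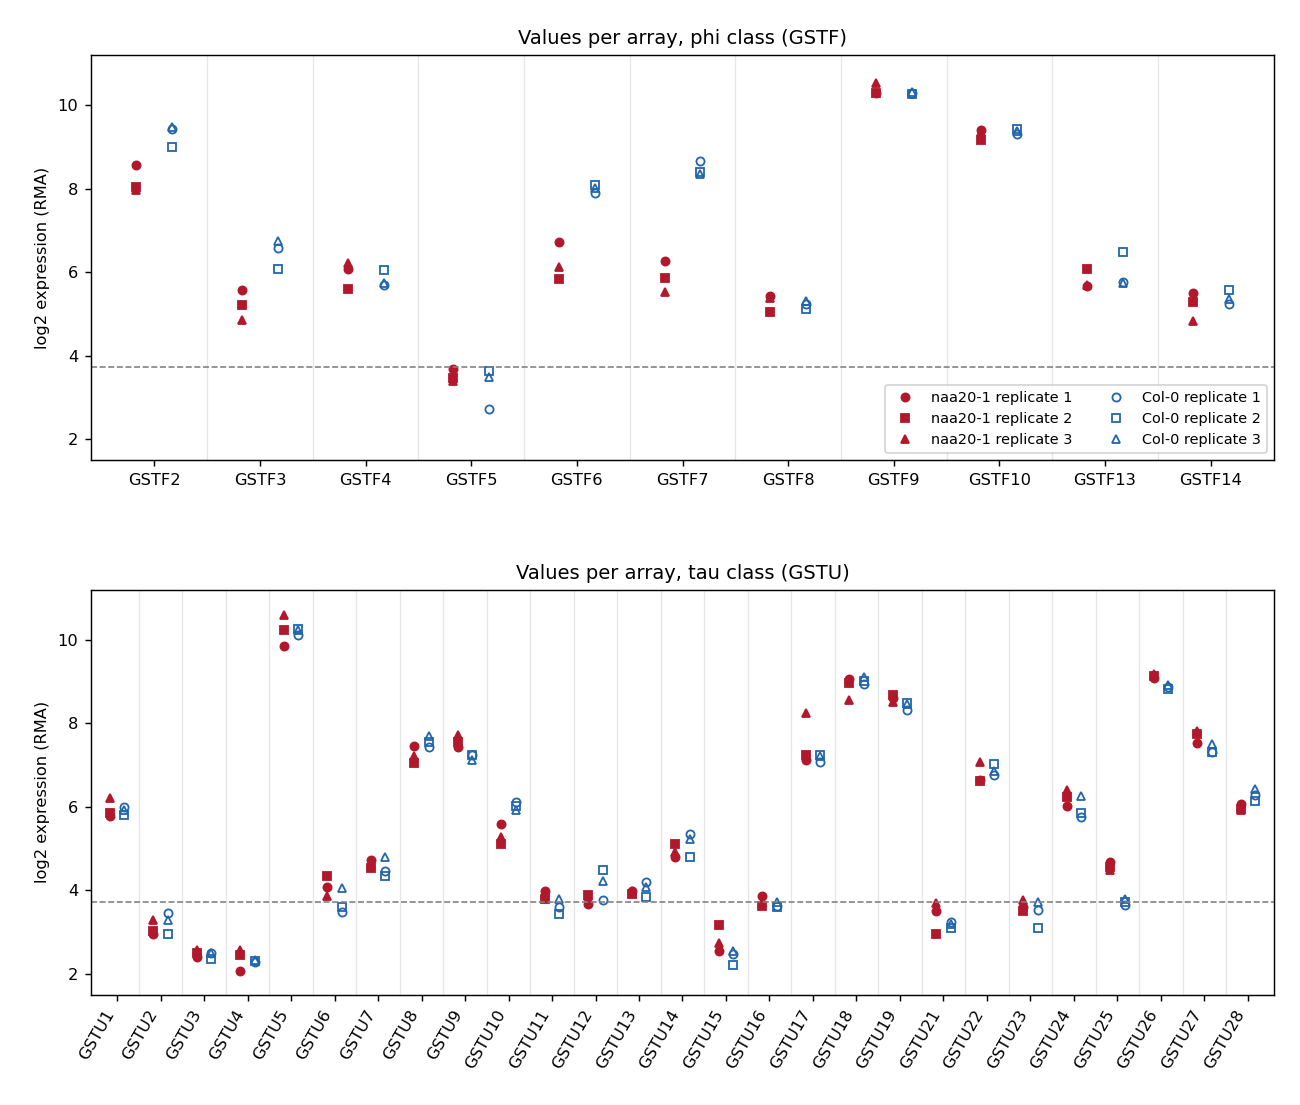
Log2 expression of every phi gene (top) and tau gene (bottom) on each array, with naa20-1 in filled red and Col-0 in open blue symbols, one symbol shape per replicate number. The dashed line is the 25th percentile of all values, 3.72. GSTF2, GSTF3, GSTF6, GSTF7, GSTU10 and GSTU28 show the mutant arrays entirely below the wild-type ones.

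In the tau class, GSTU25 was the only called member. GSTU25 (AT1G17180), which can conjugate glutathione to the explosive TNT and is induced by it, was at 4.67, 4.56 and 4.48 in naa20-1, against 3.64, 3.71 and 3.78 in Col-0. The arrays lay within 0.19 of each other in naa20-1 and within 0.15 in Col-0, and the mutant values were all higher. The difference was 0.87 (SE 0.09, adjusted p = 0.00918 in limma), the 98th most positive of the genes tested. Its Col-0 values lay close to 3.72, the 25th percentile, where signal may be background, which leaves the size of the difference uncertain. It was no longer called without Col-0 replicate 1 (difference 0.83, adjusted p = 0.0545), and the gene was among the 40% left out as dim, where it has no value.

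GSTU25 lies between GSTU24 and GSTU26 on chromosome 1, with no other gene between them, and all 3 differences were positive. GSTU26 (AT1G17190) was at 9.08, 9.13 and 9.18 in naa20-1, against 8.86, 8.81 and 8.92 in Col-0, without overlap. Its range was 0.09 in naa20-1 and 0.11 in Col-0, less than the gap between the genotypes. Its difference of 0.27 (SE 0.08) did not pass the test (adjusted p = 0.194 in limma). GSTU24 (AT1G17170), also reported to act on TNT, averaged 6.22 ± 0.19 in naa20-1 and 5.95 ± 0.27 in Col-0, with overlapping arrays. Whether the 3 genes differed from each other in their shift was not tested.

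GSTU10 (AT1G74590) was the tau gene with the most negative difference. It was at 5.59, 5.10 and 5.27 in naa20-1, against 6.12, 6.02 and 5.92 in Col-0, so every mutant array lay below every wild-type array. The difference of -0.70 (SE 0.14) missed the threshold (adjusted p = 0.0696 in limma). It passed with a variance trend and robust fit (0.0379), without the dimmest 40% of genes (0.0409) and without naa20-1 replicate 1 (0.0466). In GSTU10 and in GSTF2, GSTF3, GSTF6 and GSTF7, 5 of 5 genes, naa20-1 replicate 1 had the highest of the 3 mutant values. It also did for NAA20 and in 40.2% of all genes called lower (34.4% of all genes tested). These 5 genes were picked with their values known. GSTU28, also lower without overlap, had its highest mutant value on replicate 1 too (6.06). GSTF2 and GSTF3 are near-identical copies, as are GSTF6 and GSTF7, so the 5 genes may not all be separate signals. GSTU25, which rose, also had its highest mutant value there, 0.97 above the Col-0 mean, so in that gene replicate 1 departed furthest from Col-0. The file gives replicate 1 of naa20-1 27643 distinct values and each other array 10229, for a reason that the labels do not state. Without that array 4 members were called lower, GSTF2, GSTF6, GSTF7 and GSTU10, in place of 2.

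A further 5 tau genes separated the genotypes by small differences and were not called. GSTU9 (AT5G62480) was at 7.44, 7.54 and 7.71 in naa20-1, against 7.24, 7.23 and 7.11 in Col-0 (difference 0.37, adjusted p = 0.154 in limma). GSTU27 (AT3G43800) was at 7.54, 7.75 and 7.82 in naa20-1, against 7.30, 7.31 and 7.51 in Col-0 (difference 0.33). Both were higher in the mutant, GSTU27 by a gap of only a few hundredths between the nearest arrays. GSTU11 (AT1G69930) was at 3.98, 3.78 and 3.94 in naa20-1, against 3.61, 3.42 and 3.78 in Col-0 (difference 0.30). GSTU19 (AT1G78380), a major tau enzyme of green tissue that responds to herbicide safeners, was at 8.59, 8.67 and 8.52 in naa20-1, against 8.31, 8.47 and 8.47 in Col-0 (difference 0.18). In GSTU11 and GSTU19 the nearest arrays of the genotypes almost touched. GSTU28 (AT1G53680) was the only lower one of the 5, at 6.06, 5.94 and 5.91 in naa20-1, against 6.29, 6.13 and 6.43 in Col-0 (difference -0.31, adjusted p = 0.238 in limma).

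The largest tandem cluster, GSTU1 to GSTU7 on chromosome 2, held 7 members, and in all 7 the genotypes overlapped. The median difference was 0.05, from -0.15 to 0.39. GSTU5 (AT2G29450), first known as an auxin-induced gene, had overlapping arrays at 9.86, 10.24 and 10.59 in naa20-1, against 10.12, 10.25 and 10.23 in Col-0. The mutant arrays lay on both sides of the wild-type ones, and the difference was 0.03. GSTU1 (AT2G29490) averaged 5.95 ± 0.23 in naa20-1 and 5.90 ± 0.10 in Col-0, and GSTU7 (AT2G29420) averaged 4.63 ± 0.09 in naa20-1 and 4.53 ± 0.24 in Col-0. GSTU6 (AT2G29440) averaged 4.10 ± 0.25 in naa20-1 and 3.71 ± 0.30 in Col-0, the largest difference of the cluster. GSTU2 (AT2G29480) averaged 3.09 ± 0.18 in naa20-1 and 3.23 ± 0.26 in Col-0. GSTU3 (AT2G29470) averaged 2.49 ± 0.08 in naa20-1 and 2.45 ± 0.08 in Col-0, and GSTU4 (AT2G29460) averaged 2.35 ± 0.25 in naa20-1 and 2.30 ± 0.03 in Col-0. The means of GSTU2, GSTU3 and GSTU4 lay under the 25th percentile in both genotypes, so a change in them might not be measurable on these arrays.

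The cluster GSTU17 and GSTU18 on chromosome 1 held the tau gene with the widest spread between mutant arrays, 1.12. GSTU17 (AT1G10370), known from light signalling and drought responses, was at 7.12, 7.24 and 8.24 in naa20-1, against 7.08, 7.24 and 7.22 in Col-0. GSTU18 (AT1G10360) was at 9.07, 8.97 and 8.54 in naa20-1, against 8.95, 9.01 and 9.10 in Col-0. On naa20-1 replicate 3 the direct neighbours thus went opposite ways, GSTU17 by 1.06 above and GSTU18 by 0.47 below the Col-0 mean, while on the other mutant arrays both lay within 0.07 of it. The differences over 3 arrays, 0.35 for GSTU17 and -0.16 for GSTU18, did not pass the test (adjusted p = 0.621 and 0.689 in limma), and without that array the GSTU17 difference was 0.00.

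The other tau genes differed by less than 0.5. In the cluster GSTU19 to GSTU23 on chromosome 1, GSTU22 (AT1G78340) averaged 6.77 ± 0.25 in naa20-1 and 6.88 ± 0.12 in Col-0. GSTU21 (AT1G78360) averaged 3.38 ± 0.38 in naa20-1 and 3.17 ± 0.08 in Col-0, and GSTU23 (AT1G78320) averaged 3.63 ± 0.13 in naa20-1 and 3.44 ± 0.32 in Col-0, both dim. GSTU12 (AT1G69920), the neighbour of GSTU11, had a difference of opposite sign to it, averaging 3.81 ± 0.13 in naa20-1 and 4.16 ± 0.36 in Col-0. GSTU13 (AT1G27130), an enzyme of indole glucosinolate metabolism in immunity, averaged 3.96 ± 0.04 in naa20-1 and 4.04 ± 0.17 in Col-0. Its neighbour GSTU14 (AT1G27140) averaged 4.93 ± 0.15 in naa20-1 and 5.12 ± 0.28 in Col-0. In the pair GSTU15 and GSTU16, GSTU15 (AT1G59670) averaged 2.81 ± 0.32 in naa20-1 and 2.41 ± 0.18 in Col-0, and GSTU16 (AT1G59700) averaged 3.72 ± 0.12 in naa20-1 and 3.65 ± 0.06 in Col-0. GSTU8 (AT3G09270), which lies alone, averaged 7.24 ± 0.20 in naa20-1 and 7.56 ± 0.13 in Col-0, a difference of -0.31 with overlapping arrays. In total, 7 of the 38 members had both means under the 25th percentile, 1 phi gene and 6 tau genes, and none of the 7 was called.

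Around the phi and tau genes, the genes that make, recycle and use glutathione were set beside them as lists. The lists are described by counts and medians, and none was tested as a set. Of 10 genes of glutathione synthesis, reduction and turnover, 1 was called lower, 0 were called higher and 9 were not called (median difference 0.12). The called gene was PCS1 (AT5G44070, symbol CAD1), phytochelatin synthase, which builds metal-binding peptides from glutathione and also acts in glucosinolate-based immunity. PCS1 averaged 9.57 ± 0.04 in naa20-1 and 10.10 ± 0.04 in Col-0, a difference of -0.52 (SE 0.08, adjusted p = 0.0326 in limma). GSH1, which catalyses the rate-limiting step of glutathione synthesis, differed by 0.03 (SE 0.09), and GSH2, which completes the tripeptide, by 0.11 (SE 0.09). GGCT2;1 (AT5G26220), a cyclotransferase that degrades glutathione, averaged 8.04 ± 0.33 in naa20-1 and 7.31 ± 0.08 in Col-0, separated but not called (adjusted p = 0.0973 in limma). GR1 and GR2, which return oxidised glutathione to its reduced form, were also higher without overlap and not called, with differences of 0.23 and 0.18 (adjusted p = 0.331 and 0.371 in limma).

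Transferases of the other classes (zeta, theta, lambda, TCHQD and dehydroascorbate reductases) numbered 12, of which none was called in limma and 2 had an unadjusted p under 0.05, both lower (median difference -0.02). Over all genes 7.19% had an unadjusted p under 0.05 with a lower value and 7.02% with a higher one. GSTL1, a lambda transferase, averaged 5.12 ± 0.41 in naa20-1 and 5.87 ± 0.15 in Col-0, a difference of -0.75 (adjusted p = 0.150 in limma). GSTZ2, of the zeta class, averaged 6.69 ± 0.17 in naa20-1 and 7.03 ± 0.05 in Col-0. Of 8 glutathione peroxidase-like genes none was called and 2 had an unadjusted p under 0.05, GPX4 with a difference of -0.39 and GPX3 with one of 0.21 (adjusted p = 0.290 and 0.335 in limma). Of the 4 ABCC transporters that move conjugates into the vacuole none was called and none had an unadjusted p under 0.05. Their differences ran from -0.09 for ABCC1 to 0.09 for ABCC4.

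TGA factors and their partner SCL14 drive some tau genes under chemical stress, and the list of these regulators with other xenobiotic response genes held 16 members. None was called in limma, 4 had an unadjusted p under 0.05, and the median difference was 0.11. Of the 16 differences 12 were positive, as were 13939 of 27241 over all genes tested. The 4 were split, 2 higher and 2 lower. SCL14 averaged 7.64 ± 0.08 in naa20-1 and 7.40 ± 0.04 in Col-0, and UGT74E2, a glucosyltransferase gene, averaged 2.93 ± 0.20 in naa20-1 and 2.62 ± 0.12 in Col-0, a dim level. The genotypes did not overlap in either gene, nor in OPR2 of the same list, which was also higher (difference 0.31). The NAC factor NAC102 averaged 8.97 ± 0.05 in naa20-1 and 9.54 ± 0.22 in Col-0 (adjusted p = 0.0856 in limma), and NAC032 averaged 9.32 ± 0.24 in naa20-1 and 9.77 ± 0.14 in Col-0 (adjusted p = 0.205). Both lay below Col-0 on every mutant array.

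**Figure D4:**
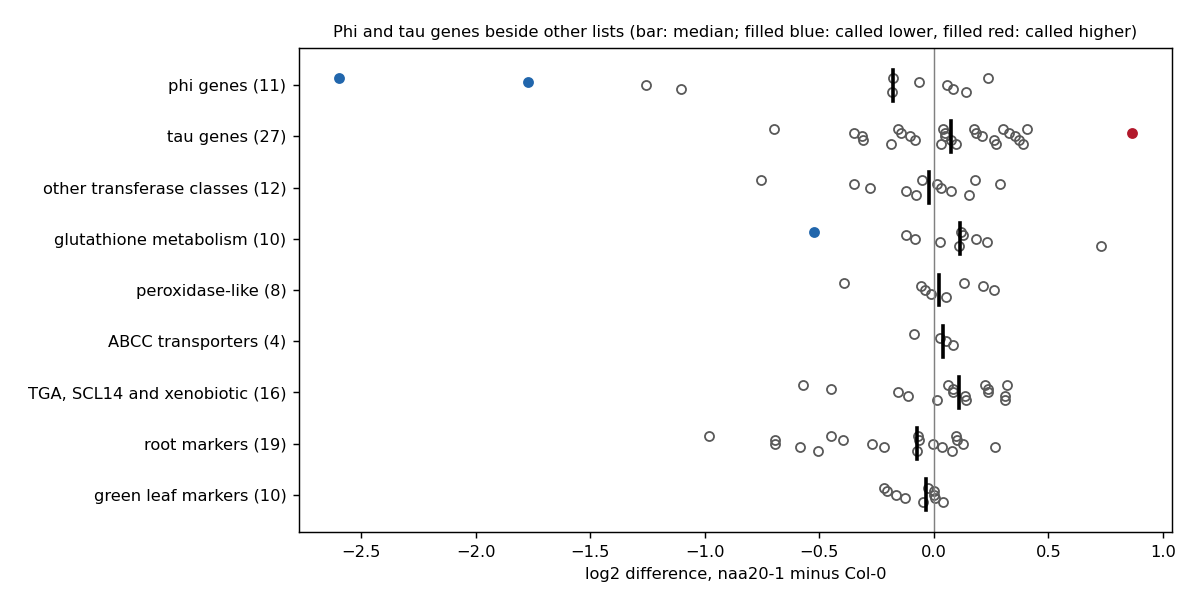
Log2 difference (x axis, naa20-1 minus Col-0) of each member of the phi and tau classes, of the 5 related lists and of 2 tissue marker lists, with the number of genes in brackets and a black bar at each median. Filled points are the called genes, 2 phi genes, GSTU25 and PCS1.

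Markers of the tissues in a seedling were read beside these results. Of 19 root markers, 13 had negative differences, 8 lay below Col-0 without overlap and none was called in limma. At an unadjusted p under 0.05, 8 were lower and 1 was higher. Over all genes tested, 48.8% had negative differences, 10.5% were lower without overlap and 7.19% had an unadjusted p under 0.05 with a lower value. The mean level of the list was 6.87 to 6.97 in naa20-1 arrays and 7.12 to 7.18 in Col-0 arrays, with a median difference of -0.07. The marker with the smallest p, the tonoplast aquaporin TIP2;3, averaged 9.58 ± 0.22 in naa20-1 and 10.27 ± 0.06 in Col-0. The Casparian strip genes CASP1, CASP2, CASP4 and CASP5 lay below Col-0 without overlap and were not called, with differences of -0.40 for CASP1, -0.51 for CASP2, -0.59 for CASP4 and -0.98 for CASP5. GSTF2, GSTF3, GSTF6 and GSTF7 were also lower without overlap, as were 10.5% of all genes, and a link to the CASP genes was not tested. Of 10 green leaf markers none was called, 3 lay below Col-0 without overlap and 1, LHCB1.3, had an unadjusted p under 0.05 (difference -0.22, adjusted p = 0.268 in limma), followed by CA1 with a difference of -0.17. Their mean level was 11.26 to 11.33 in naa20-1 arrays and 11.30 to 11.44 in Col-0 arrays. RBCS1A stood at 14.18 on all 6 arrays, close to the highest value of the table, so that a difference in it may not be measurable. The same may hold for LHCB3 (13.83 in naa20-1 and 13.82 in Col-0) and PSBO1 (13.87 and 13.82). The part of root tissue in the lower phi genes was not tested.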

How the data were processed

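The deposited table holds log2 expression values that the authors made with RMA, per the submitters' processing notes. No source used here gives the array type, the probe set definition or the software. Of 27827 probe sets, 27241 had a locus code in the reference gene table (assembly TAIR10.1), from which only names and gene order were taken. A linear model with moderated variances was fitted to these (limma 3.58.1, lmFit and eBayes, R 4.3.3), with genotype as the only term, two-sided, and adjusted by Benjamini-Hochberg over all 27241. No filter on low values was applied. Tandem clusters are runs of members of one class with at most 5 other genes between neighbours. All members are named, each list gives up to 4 called members or, where fewer than 2 were called, the 2 with the smallest p. GSH1, GSH2, GR1, GR2, SCL14, UGT74E2, OPR2, RBCS1A, LHCB3, PSBO1, CASP1, CASP2 and CASP5 were added once values were known. The members and lists were chosen with earlier results of these data known. Sequences were not used here.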

Additional observations from a re-analysis of the deposited data

How the results depend on the processing

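Results were recomputed after a second quantile normalization, centring on the array median, removal of the dimmest 40% of genes, a variance trend with robust fit, all probe sets kept, the replicate number as a block, a fold threshold, and each array left out. The 2 lower and 1 higher members were 5 and 0 without the dim genes, which left 23 of the 38 members and not GSTU25. With a variance trend and robust fit 5 members were lower, and 486 genes lower and 311 higher in all, against 209 and 104. With a difference of at least 1 added, 0 members were higher. With the replicate block, 2 members were lower and 1 higher, with 129 genes lower and 61 higher in all. Same-numbered arrays hardly deviated together (r = 0.02, 0.06 and 0.01 across genes for replicates 1, 2 and 3). The same number gave the best match for naa20-1 replicates 1 and 2, while replicate 3 correlated best with Col-0 replicate 1 (r = 0.02). As all these correlations were small, the numbers were not taken as pairs. The block used the numbers of the sample titles, which differ from those in the naa20-1 descriptions, and changed no member's call. Leaving out 1 array gave 1 to 4 members lower and 0 to 1 higher, and 51 to 134 genes lower and 11 to 63 higher, partly from having fewer arrays. The phi median ran from -0.26 to -0.04 and the tau median from 0.01 to 0.15 over the arrays left out. No called or separated member changed sign under these alternatives. Beyond fewer genes or arrays, the cause of these changes was not tested. Dim values limit the lowest members, most of them tau genes.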
